A study of Mus musculus with 6 samples.

Results

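The genes described here are 10 immediate early genes of the infarcted mouse heart: the nuclear receptor genes Nr4a1, Nr4a2 and Nr4a3, the zinc finger genes Egr1, Egr2 and Egr3, the immediate early response genes Ier2, Ier3 and Ier5, and Srf. They were found by symbol among the 52550 rows of the deposited gene table, 1 row each, through Ensembl identifiers. The family was chosen by its gene names after the KO against WT differences in FPKM were known, so those differences are given as a description and the direction of the family as a whole supports nothing. The adjusted p-values printed for single genes come from a fit over all 14656 tested genes. The hearts came from 6 C57BL/6 mice whose left anterior descending coronary artery had been tied off for good at 8 weeks of age. Of these, 3 were wild type (WT) and 3 lacked the long noncoding RNA named lncRNA-DRR in the labels (lncRNA-DRR-/-, here KO). All hearts were removed at 10 weeks of age, 2 weeks after the infarction, and frozen, and all carry an infarct. The labels do not say how the deletion was made, in which cells it acts or whether the mice were littermates, and sham-operated hearts were not analysed here. The labels do not say whether the hearts of a genotype came from separate matings or operation days, so the p-values rest on the spread between these animals alone.

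Immediate early genes are switched on within minutes of a stimulus, without new protein synthesis, and most of their transcripts are short-lived. Signals that reach them run through the MAP kinase cascade, calcium and cyclic AMP, and end on factors already bound at their promoters, chiefly SRF with its partners at the CArG box and CREB at the cyclic AMP response element (CRE). NR4A proteins are orphan nuclear receptors that act without a known hormone, EGR proteins bind GC-rich sites, and the IER proteins are small regulators of stress and survival signalling. In the heart these genes respond to stretch, adrenergic drive and injury.

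Expression was given as FPKM (fragments per length of transcript and per size of library), from about 5189000 to 9398000 fragments per heart. KO replicate 3 stood apart in sex-linked genes, with Xist at 25.6 FPKM against at most 0.0742 in the other 5 hearts, and Ddx3y at 0.0280 FPKM against 13.0 to 16.2. The 2 calls among the members, the members and ratios for which it was the highest heart, and the marker sums are therefore also given without it. Cardiomyocyte markers summed to between 14930 and 23030 FPKM in every heart, as the tissue label has it. Whole hearts were measured, so fewer cells of a type and less RNA per cell cannot be told apart.

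The family did not move as a block. Nr4a1 and Ier3 were higher in KO hearts and passed the test over all genes, while the other 8 members did not. Nr4a3 lay higher in every KO heart than in any WT heart without passing, Egr1, Egr2 and Ier2 were high mainly in 1 KO heart, and the KO to WT ratios of mean FPKM of Nr4a2, Egr3, Ier5 and Srf were between 0.940 and 1.14. The test was limma's moderated test on log2(FPKM + 0.5) after scaling of the libraries, two-sided, with Benjamini-Hochberg adjustment, and a gene was called at an adjusted p under 0.05. It called 2 of the 10 members higher and 0 lower. Over all tested genes it called 0.273% higher and 0.102% lower, 0.375% in all. All 10 members passed the filter on low values (at least 0.5 FPKM in 3 hearts). In 3 members the genotypes did not overlap, and in these the KO hearts were the higher ones. Over all tested genes 12.8% did not overlap, 5.29% with KO higher. An unadjusted p under 0.05 was reached by 3 members and by 8.48% of all tested genes. An exact permutation test of each member over the 6 hearts (two-sided) cannot go below a p of 0.1. It gave 0.1 for Nr4a1, Nr4a3 and Ier3, which restates that their genotypes did not overlap. It gave 0.2 for Egr1 and Ier2, and 0.4 to 1.0 for the others. These p-values rest on differences known when the family was chosen and were computed for no other gene. They are a description and support nothing. The median log2 difference of the members was 0.29, beside -0.004 over all tested genes.

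**Figure D1:**
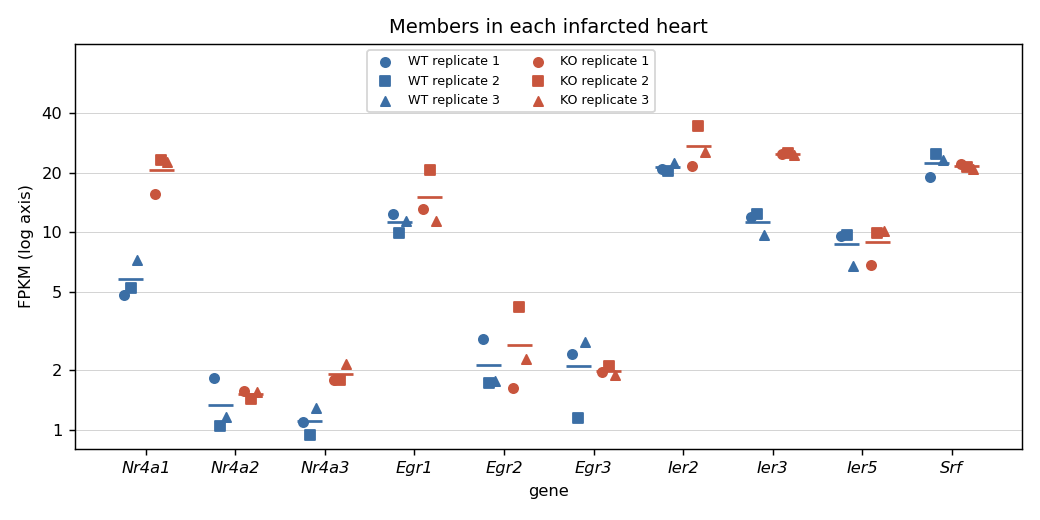
FPKM of each member (log axis) in the 3 WT hearts (blue) and the 3 KO hearts (red), with one marker shape per replicate number and a bar at the mean. For Nr4a1, Nr4a3 and Ier3 every KO heart lies above every WT heart, while KO replicate 2 is the high point for Egr1, Egr2 and Ier2.

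Nr4a1 encodes NUR77, the NR4A receptor best known from lymphocytes, macrophages and stressed muscle. It was listed at 4.82, 5.21 and 7.28 FPKM in WT replicates 1 to 3 and at 15.7, 23.3 and 22.8 FPKM in KO replicates 1 to 3. Even the lowest KO heart was above the highest WT heart. The mean rose from 5.77 ± 1.32 to 20.6 ± 4.24 FPKM (SD, n = 3 each), a ratio of 3.57. The log2 difference was 1.76 ± 0.22 (SE; limma adjusted p = 0.027), with a 95% interval from 1.25 to 2.27. In rank by p Nr4a1 was number 31 of all tested genes. The gene lies on chromosome 15 (101254269 to 101274795, plus strand, GRCm38).

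Nr4a3 encodes NOR1, a close relative of NUR77. It was far less abundant, at 1.10, 0.938 and 1.29 FPKM in WT and at 1.79, 1.78 and 2.15 FPKM in KO replicates 1 to 3. The groups did not overlap, and the means were 1.11 ± 0.174 and 1.91 ± 0.214 FPKM (SD, n = 3 each). The log2 difference of 0.59 ± 0.17 was not called (limma adjusted p = 0.334, unadjusted p = 0.00999). Its 95% interval ran from 0.19 to 1.00 on a scale that understates changes at such low levels. With a pseudocount of 0.1 in place of 0.5 the difference was 0.75, and without KO replicate 3, the highest heart, it was 0.51 (limma adjusted p = 0.483), both uncalled.

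Nr4a2 encodes NURR1, which is known above all from dopamine neurons and is also an early gene of many other cells. It stood at 1.82, 1.04 and 1.15 FPKM in WT and at 1.58, 1.43 and 1.55 FPKM in KO replicates 1 to 3. WT replicate 1 was the highest of all 6 hearts, so the genotypes overlapped. The log2 difference was 0.17 ± 0.18, with a 95% interval from -0.26 to 0.60 (limma adjusted p = 0.855). Depth limits both low genes: by their longest transcript Nr4a2 rested on about 21 to 61 fragments per heart and Nr4a3 on about 38 to 85, against about 96 to 485 for Nr4a1.

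Within the family the balance moved towards Nr4a1. Of the summed FPKM of the 3 NR4A genes, Nr4a1 made up 62.3%, 72.5% and 74.9% in WT and 82.3%, 87.9% and 86.0% in KO replicates 1 to 3. The sum itself was 7.19 to 9.72 FPKM in WT and 19.1 to 26.5 FPKM in KO hearts. These shares were computed after the single values had been seen and carry no test.

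The promoters of the 3 NR4A genes are shown because the genes share a sequence feature. Each window runs from 250 bases before to 50 bases after the RefSeq start site (GRCm38.p6) and is printed 5′ to 3′ on the strand of the gene. Capitals mark the core of the CRE, TGACG on either strand (CGTCA on the other).
Nr4a1, chr15:101266596-101266895, plus strand: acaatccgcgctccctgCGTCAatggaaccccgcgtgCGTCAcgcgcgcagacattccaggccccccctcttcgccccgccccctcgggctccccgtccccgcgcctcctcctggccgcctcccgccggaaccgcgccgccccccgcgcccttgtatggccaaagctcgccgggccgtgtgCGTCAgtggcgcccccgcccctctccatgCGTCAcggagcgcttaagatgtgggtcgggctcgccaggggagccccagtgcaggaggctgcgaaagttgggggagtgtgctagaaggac
Nr4a2, chr2:57123954-57124253, minus strand: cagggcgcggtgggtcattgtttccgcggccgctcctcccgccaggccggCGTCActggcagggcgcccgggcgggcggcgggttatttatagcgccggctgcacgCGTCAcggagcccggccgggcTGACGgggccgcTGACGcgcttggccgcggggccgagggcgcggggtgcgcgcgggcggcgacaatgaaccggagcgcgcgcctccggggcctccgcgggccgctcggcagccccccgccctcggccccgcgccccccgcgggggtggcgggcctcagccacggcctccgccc
Nr4a3, chr4:48045055-48045354, plus strand: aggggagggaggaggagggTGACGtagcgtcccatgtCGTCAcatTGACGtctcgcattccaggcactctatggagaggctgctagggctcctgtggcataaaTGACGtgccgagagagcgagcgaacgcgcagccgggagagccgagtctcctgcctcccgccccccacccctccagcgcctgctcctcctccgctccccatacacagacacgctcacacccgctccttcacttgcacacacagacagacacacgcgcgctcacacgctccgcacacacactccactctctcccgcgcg
Each of the 3 windows held 4 such cores. The core was not particular to these genes: the Egr2 window printed below held 2 and the Srf window 1. Of 27025 promoter windows of the same length, 21.0% held at least 1 and 0.252% held 4 or more. The cutoff of 4 is the count found in these 3 windows. The compared windows were not matched to their GC content (72.3%, 81.7% and 64.7% for Nr4a1, Nr4a2 and Nr4a3), so the share is only a description. The full palindrome TGACGTCA, found in 1.88% of all windows, was in none of the 3. A match is a description of the letters and no evidence of binding. The feature is common to the gene that was called and to the 2 that were not, of which Nr4a3 was also higher in every KO heart. The part of these sites in the differences was not tested.

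Egr1 encodes a zinc finger factor induced in vessels and heart by injury and stretch. It was listed at 12.3, 9.94 and 11.4 FPKM in WT and at 13.1, 20.7 and 11.4 FPKM in KO replicates 1 to 3. KO replicate 2 alone stood well above the WT hearts, and KO replicate 3 lay inside their range. The means were 11.2 ± 1.20 and 15.1 ± 4.93 FPKM (SD, n = 3 each), with a log2 difference of 0.38 ± 0.19 that was not called (limma adjusted p = 0.670). Without KO replicate 2 the difference was 0.18.

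Egr2 encodes KROX20, a factor of myelination that is also induced in lymphocytes and macrophages. Relative to its mean it varied most of the 10 members among the KO hearts (coefficient of variation 49.7%), with 1.62, 4.20 and 2.27 FPKM, against 2.89, 1.72 and 1.76 FPKM in WT. The lowest and the highest heart were thus both KO hearts. The log2 difference of 0.24 ± 0.28 was not called (limma adjusted p = 0.867) and was -0.04 without KO replicate 2.

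Egr3 encodes a related factor that acts in muscle spindles and lymphocytes. It was listed at 2.42, 1.14 and 2.77 FPKM in WT and at 1.97, 2.09 and 1.90 FPKM in KO replicates 1 to 3. The KO hearts sat close together inside the WT range. The log2 difference was -0.002 ± 0.26, with a 95% interval from -0.61 to 0.61 (limma adjusted p = 0.999), and its sign changed with single hearts left out and with a pseudocount of 0.1. Egr4, the remaining member of the gene family, was listed at 0 in all 6 hearts.

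Ier3, also known as IEX-1, encodes a short-lived protein of survival and inflammatory signalling that is a target of NF-kappaB and p53. It had the smallest p among the members and was number 19 of all tested genes. It was listed at 11.96, 12.36 and 9.68 FPKM in WT and at 24.8, 25.2 and 24.5 FPKM in KO replicates 1 to 3. As listed, before scaling, the KO hearts lay within 1 FPKM of each other, and all were far above the WT hearts. The scaling factors of KO replicates 1 to 3 (0.954, 1.06 and 0.974) widen the spread of the KO hearts. The mean rose from 11.3 ± 1.44 to 24.9 ± 0.365 FPKM (SD, n = 3 each), a ratio of 2.19. The log2 difference was 1.12 ± 0.12, with a 95% interval from 0.84 to 1.40 (limma adjusted p = 0.016). The gene has a single annotated transcript of 1131 bases on chromosome 17 (35821684 to 35822923, plus strand, GRCm38).

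The promoter window of Ier3 is shown as that of the other called member. Capitals mark the 1 match to the NF-kappaB box, on the strand opposite to the gene, from -92 to -83 relative to the start site.
Ier3, chr17:35821463-35821762, plus strand: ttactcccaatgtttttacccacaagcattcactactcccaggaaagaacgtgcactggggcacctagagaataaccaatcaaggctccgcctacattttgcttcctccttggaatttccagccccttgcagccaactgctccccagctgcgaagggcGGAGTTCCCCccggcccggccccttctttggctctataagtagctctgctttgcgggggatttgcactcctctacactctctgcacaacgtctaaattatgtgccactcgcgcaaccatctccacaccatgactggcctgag
An NF-kappaB box was in 8.18% of all windows. The Ier3 window held no TGACG and no CArG box. The part of any of these sites in the rise of Ier3 was not tested. The Nr4a1 window also held 1 NF-kappaB box, from -3 to 7, across the start site. So did the window at a start site of Egr2, a gene that was not called. It held 2 overlapping matches, from -117 to -108 and from -116 to -107.

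Ier2 encodes a nuclear protein induced by growth factors. It was among the most abundant members, at 21.0, 20.5 and 22.5 FPKM in WT and at 21.6, 34.7 and 25.6 FPKM in KO replicates 1 to 3. The WT hearts were tightly grouped, and KO replicate 1 lay among them. The log2 difference of 0.33 ± 0.16 was not called (limma adjusted p = 0.650), with a 95% interval from -0.04 to 0.71.

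Ier5 encodes a relative of IER2 that is tied to the heat shock response. It was listed at 9.59, 9.68 and 6.77 FPKM in WT and at 6.82, 9.91 and 10.1 FPKM in KO replicates 1 to 3. Each genotype had 1 low heart and 2 high ones. The log2 difference was 0.05 ± 0.18, with a 95% interval from -0.36 to 0.46 (limma adjusted p = 0.968), and it was -0.06 without KO replicate 3, the highest heart.

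Srf encodes serum response factor, which binds the CArG box of early genes and of contractile genes alike. It was listed at 19.1, 24.9 and 23.1 FPKM in WT and at 22.3, 21.5 and 21.0 FPKM in KO replicates 1 to 3. The KO hearts lay inside the WT range. The log2 difference was -0.03 ± 0.16 (limma adjusted p = 0.979), and the 95% interval for the fold of KO over WT ran from 0.760 to 1.26. Its sign changed when single hearts were left out. A long noncoding RNA gene on the opposite strand, Gm26904, overlaps Srf at 1.93 to 3.75 FPKM. Reads of the pair cannot be told apart if strand was not used, which the sources used here do not give.

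Of the 7 members searched, only Srf and Egr2 had a window that held a CArG box, the site of SRF itself. Their windows are shown with the box in capitals, and neither gene was called. Egr2 has 5 RefSeq start sites, and the window shown is 1 of 3 overlapping ones with the same box, while another start site has a different box.
Srf, chr17:46556113-46556412, minus strand: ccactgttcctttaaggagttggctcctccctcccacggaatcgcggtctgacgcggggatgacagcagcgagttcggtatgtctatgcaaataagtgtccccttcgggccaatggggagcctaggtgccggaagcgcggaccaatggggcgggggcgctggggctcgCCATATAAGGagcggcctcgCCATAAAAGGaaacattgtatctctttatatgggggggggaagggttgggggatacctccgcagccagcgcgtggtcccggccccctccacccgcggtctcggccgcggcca
Egr2, chr10:67537619-67537918, plus strand: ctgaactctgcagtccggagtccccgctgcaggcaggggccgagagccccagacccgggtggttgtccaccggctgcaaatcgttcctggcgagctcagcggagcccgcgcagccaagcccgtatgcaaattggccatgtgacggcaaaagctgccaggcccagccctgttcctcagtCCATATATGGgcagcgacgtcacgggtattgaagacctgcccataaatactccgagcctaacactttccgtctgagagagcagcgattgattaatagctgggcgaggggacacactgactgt
The Srf window held 2 boxes, from -82 to -73 and from -62 to -53, and the Egr2 window held 1, from -72 to -63. Of all windows 1.57% held a CArG box, whose palindromic form makes a match on one strand a match on the other. The clock's E-box CACGTG, in 7.24% of all windows, was found only at another Egr2 start site among the 7 members searched. The D-box letters TTATGTAA or TTACGTAA and the NR4A site AAAGGTCA were in none of these windows. An EGR site, GCGTGGGCG or GCGGGGGCG, was in the Nr4a1 and Srf windows and in 3.49% of all. Promoter windows were searched for 7 members and not for Egr1, Egr3 or Ier2, so whether these genes hold a CArG box was not looked at.

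**Figure D2:**
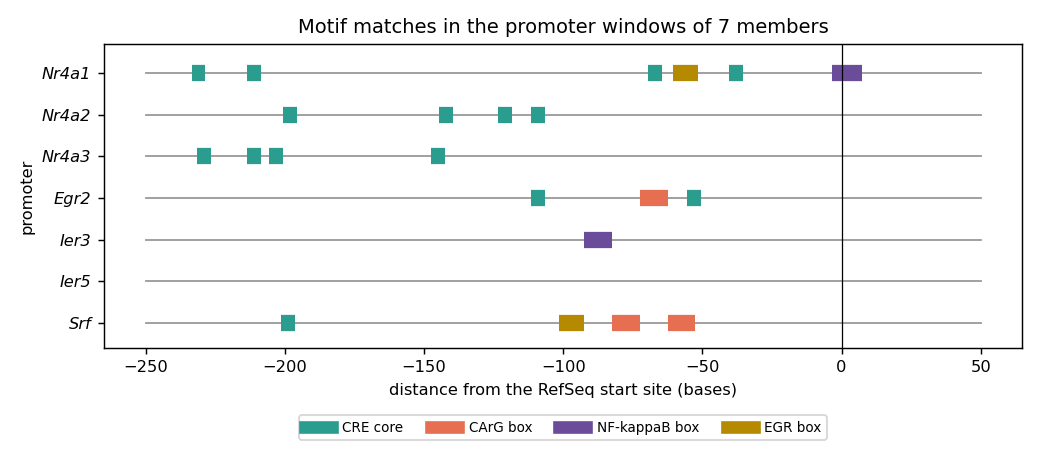
Positions of motif matches, on either strand, in the window from 250 bases before to 50 after the RefSeq start site (x axis, bases) for the 7 members searched, 1 line each (for Egr2 the window printed). The 3 NR4A windows each hold 4 CRE cores (green), Egr2 holds 2 and Srf 1. Srf holds 2 CArG boxes and Egr2 1 (orange), and Ier3 and Nr4a1 each hold 1 NF-kappaB box (purple).

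**Figure D3:**
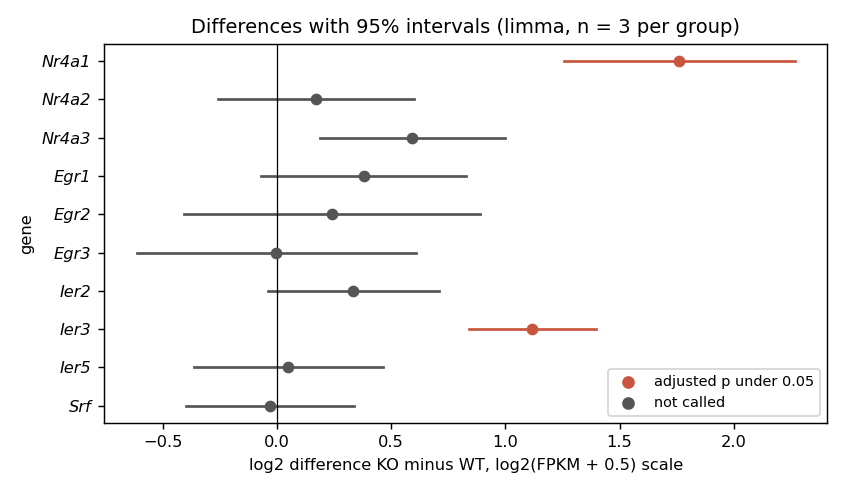
Log2 difference KO minus WT of each member (points) with its 95% interval (lines), from limma over all tested genes. The intervals of Nr4a1 (1.25 to 2.27) and Ier3 (0.84 to 1.40) lie farthest above 0, and those of Srf and Ier5 reach no higher than 0.34 and 0.46.

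How members stood to each other is given as 4 ratios within each heart. They are built from the values the members were known by, so they are a description and carry no test. The ratio of Nr4a1 to Egr1 was 0.392, 0.524 and 0.639 in WT and 1.20, 1.13 and 2.00 in KO replicates 1 to 3. On the log2 scale it differed by 1.38 between the genotypes, and by 1.13 without KO replicate 3, the highest heart. Nr4a1 to Srf ran from 0.209 to 0.315 in WT and from 0.705 to 1.09 in KO hearts, a log2 difference of 1.79 (1.69 without KO replicate 3). Ier3 to Ier2 ran from 0.431 to 0.602 in WT and from 0.727 to 1.15 in KO hearts, a log2 difference of 0.78. These 3 ratios, each with a called member over an uncalled one, did not overlap between the genotypes. Ier5 to Ier2, of which neither gene was called, overlapped, with a log2 difference of -0.28.

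Since FPKM is a value per length, levels can also be ordered between genes. In WT hearts Srf (22.4 ± 2.96 FPKM, SD, n = 3) and Ier2 (21.4 ± 1.02) led, and their ranges overlapped. Ier3 (11.3) and Egr1 (11.2) followed and overlapped each other, and then came Ier5 (8.68), Nr4a1 (5.77), Egr2 (2.12), Egr3 (2.11), Nr4a2 (1.34) and Nr4a3 (1.11). The ranges of Ier5 and Nr4a1 overlapped, as did those of the last 4 genes from each to the next. In KO hearts Ier3 (24.9 FPKM) stood beside Ier2 (27.3), and Nr4a1 (20.6) overlapped with both Srf (21.6) above it and Egr1 (15.1) below it. Nr4a1 was thus below Ier5 in mean level in WT and above it, with no overlap, in KO hearts.

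The members also varied from heart to heart within a genotype. In FPKM before scaling, KO replicate 2 held the highest value of the 6 hearts for 5 members of the 10, and for 28.5% of all tested genes. The 5 were Nr4a1, Egr1, Egr2, Ier2 and Ier3. The scaling factors of KO replicates 1 to 3 were 0.954, 1.06 and 0.974. After scaling, KO replicate 2 is no longer the highest heart for Nr4a1 and Ier3. Deviations of the scaled log2 values from the genotype means are described over 6 hearts with no test. In these Egr1 correlated with Egr2 (Pearson r = 0.72) and with Ier2 (r = 0.70), and Nr4a1 with Ier2 (r = 0.74) and Nr4a3 (r = 0.65). Ier3 went against Nr4a1 (r = -0.63) and Egr3 (r = -0.87). Nr4a1 and Ier3, the 2 called members, had r = 0.92 over the hearts as they are, which follows in part from the difference between genotypes. With 3 hearts per genotype the deviations cannot say whether the scatter of the 2 genes is shared. The deviations also share library and scaling.

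The calls rested on few hearts. Left without any single heart, the log2 difference of Nr4a1 stayed between 1.61 and 1.96 and that of Ier3 between 1.05 and 1.19. Nr4a1 kept its call only without WT replicate 3 (limma adjusted p = 0.0255) and Ier3 only without KO replicate 2 (0.0453). Otherwise the limma adjusted p of Nr4a1 was 0.0809 and 0.144 without WT replicates 1 and 2 and 0.0717, 0.0988 and 0.0787 without KO replicates 1, 2 and 3. For Ier3 it was 0.0591, 0.0618 and 0.0636 without WT replicates 1, 2 and 3, and 0.0946 and 0.0525 without KO replicates 1 and 3. With no filter on low values, which adds genes to the adjustment, Nr4a1 also missed the threshold (limma adjusted p = 0.119). With the replicate number as a block Ier3 missed it (limma adjusted p = 0.0562).

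**Figure D4:**
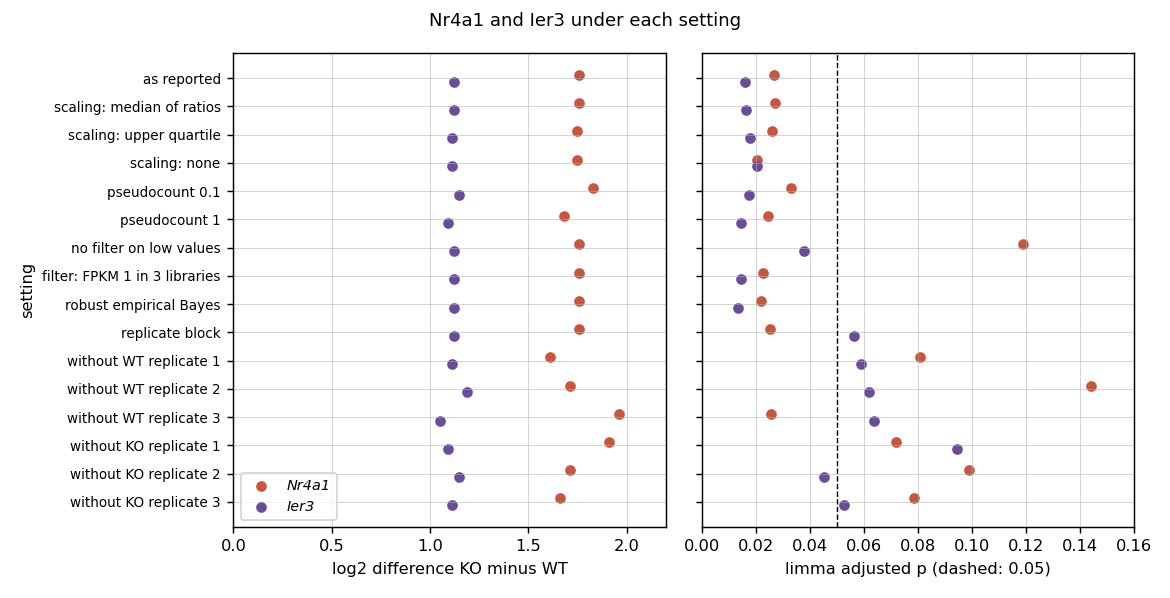
Log2 difference (left) and limma adjusted p (right, dashed line at 0.05) of Nr4a1 and Ier3 under each setting. The differences hold between 1.61 and 1.96 for Nr4a1 and between 1.05 and 1.19 for Ier3, while most settings with a heart left out end the call.

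Other immediate early genes, 41 in a list written down with earlier results of these data known, were set beside the members. Of the 39 that were tested, 6 rose and 0 fell, beside 0.273% and 0.102% of all tested genes. Of the list, 33 were higher and 6 lower, and the median log2 difference was 0.51. Cebpd, which encodes the acute-phase factor C/EBP-delta, stood at 11.3, 9.23 and 10.3 FPKM in WT and at 34.7, 37.7 and 27.7 FPKM in KO replicates 1 to 3 (log2 difference 1.66 ± 0.14, limma adjusted p = 0.0051). Klf6, a Krüppel-like factor of injury and fibrosis, differed by 0.94 ± 0.11, and Sgk1, a kinase gene induced by serum and glucocorticoids, by 1.29 ± 0.16 (limma adjusted p = 0.026 and 0.029). The others that rose, named after their values were seen, were Dusp1, Csrnp1 and Klf2 (log2 differences 1.46, 1.41 and 1.07). The lowest of the list was Plk2, a polo-like kinase gene named after its value was seen, with a log2 difference of -0.46 that was not called (limma adjusted p = 0.265). Fos, which encodes a subunit of AP-1 and is the classical early gene, was likewise uncalled and was named after its values were seen: it was listed at 2.73, 1.66 and 1.92 FPKM in WT and at 3.52, 6.48 and 3.51 FPKM in KO replicates 1 to 3. Before scaling, KO replicate 2 was the highest heart for Fos, as for Egr1 and Ier2, and for 22 of the 39 genes, or 56.4%. The count of genes that rose was 6 without KO replicate 3 and 1 without any one of the other 5 hearts. Cebpd kept its call without any single heart (limma adjusted p at most 0.0451). Sgk1, Dusp1 and Csrnp1 kept theirs only without KO replicate 3 (otherwise 0.0799 to 0.173), and Klf6 and Klf2 lost theirs without any one heart (0.0592 to 0.176).

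**Figure D5:**
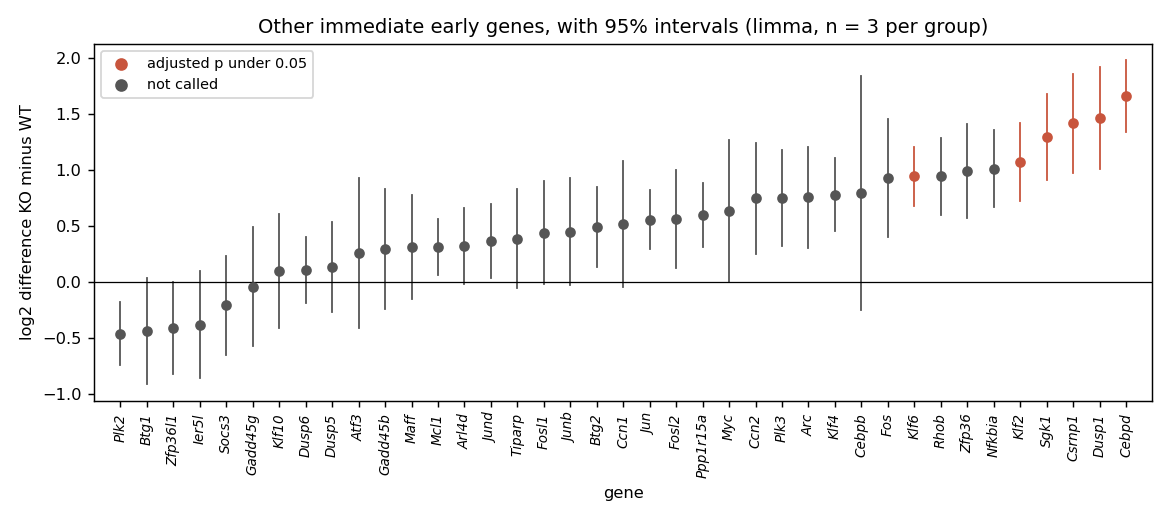
Log2 difference KO minus WT (points) with 95% intervals (lines) of the 39 tested other immediate early genes, in order of size, with called genes in red. Values run from -0.46 (Plk2) to 1.66 (Cebpd), and 33 of the 39 lie above 0.

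No gene passed the test among the regulators and partners of the members, the MAP kinase and calcium genes, or the contractile targets of SRF. Only RNA was measured, so the activity of the encoded proteins is not shown. Of 23 tested regulators and partners (SRF cofactors, CREB and its coactivators, EGR corepressors, MEF2 and RXR genes), 0 were called, 1 had an unadjusted p under 0.05 and the median log2 difference was 0.01. Rxrg, which encodes a partner of the NR4A receptors, had the smallest p of them, at 13.8 ± 1.20 FPKM in WT hearts against 8.60 ± 1.74 in KO hearts (SD, n = 3 each; limma adjusted p = 0.294). Crem, which encodes a CRE-binding factor, stood at 1.49 ± 0.337 and 2.12 ± 0.362 FPKM (limma adjusted p = 0.624), and Crtc2, which encodes a CREB coactivator, at 6.73 ± 0.498 and 7.85 ± 1.29 FPKM (0.757). Of 28 tested genes of MAP kinase and calcium input 0 were called and 3 had an unadjusted p under 0.05, with a median of -0.02. Camk2d, the main cardiac calcium/calmodulin kinase gene, was first among these at 4.15 ± 0.584 and 3.14 ± 0.069 FPKM (limma adjusted p = 0.481). Map2k2, which encodes the kinase MEK2, was at 8.51 ± 0.253 and 6.91 ± 0.133 FPKM (limma adjusted p = 0.555). Nras, a small GTPase gene of the same cascade, was at 9.16 to 10.1 FPKM in WT hearts and at 3.21, 10.3 and 3.92 FPKM in KO replicates 1 to 3 (limma adjusted p = 0.558), so that KO replicate 2 lay above the WT hearts.

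Downstream, 0 of 22 contractile and cytoskeletal targets of SRF were called by limma, with 4 at an unadjusted p under 0.05 and a median log2 difference of 0.08. The smallest p belonged to Lmod1, a smooth muscle actin nucleator gene, at 3.46 ± 0.353 and 4.54 ± 0.302 FPKM (limma adjusted p = 0.466). Filip1l was next at 19.9 ± 1.44 and 25.3 ± 4.04 FPKM, and Actg2, the enteric smooth muscle actin gene, stood at 1.64 ± 0.783 and 2.75 ± 0.794 FPKM (limma adjusted p = 0.466 and 0.545).

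Many clock and glucocorticoid-induced genes also differed between the genotypes. Both lists were chosen with earlier results of these data known. The clock gene Dbp stood at 1.70 to 2.29 FPKM in WT and 28.6 to 40.5 FPKM in KO hearts, Nr1d2, which encodes the repressor REV-ERB-beta, at 4.80 to 5.59 and 23.6 to 26.7 FPKM, Arntl at 6.63 to 9.86 and 0.511 to 1.01 FPKM, and Per1 at 2.79 to 3.97 and 16.1 to 30.6 FPKM. Of 19 tested genes of the clock list 8 rose and 2 fell, beside 0.273% and 0.102% of all tested genes. The median log2 difference of the list was 0.96. Without KO replicate 1, 5 rose, and Per1 was then not called (limma adjusted p = 0.0553), while Dbp, Nr1d2 and Arntl were called whichever heart was left out. No hour of harvest is given in the labels, so genotype and hour of harvest cannot be told apart for the early genes either. Tsc22d3, a gene induced by glucocorticoids, stood at 12.3 to 14.4 FPKM in WT and 53.9 to 80.9 FPKM in KO hearts. Mt2, a metallothionein gene, stood at 18.8 to 27.1 and 60.1 to 100.5 FPKM (limma adjusted p = 0.015, and 0.0569 to 0.0900 in the 3 fits with a heart left out that ended its call). Of 13 tested glucocorticoid-induced genes 11 were higher and 2 lower in KO hearts (median 1.29). By the test 7 rose and 0 fell, beside 0.273% and 0.102% of all tested genes. The count that rose was 1 without KO replicate 1, 2 without WT replicate 2 or 3, 3 without WT replicate 1 or KO replicate 2, and 6 without KO replicate 3. It was 2 with no filter on low values and 3 with the replicate block. Tsc22d3 was called whichever heart was left out. The 2 lower genes were Zbtb16 and Nr3c1, the gene of the glucocorticoid receptor itself, and neither was called. Zbtb16 was at 4.355 to 7.201 FPKM in WT and 3.184 to 3.591 FPKM in KO hearts, and Nr3c1 differed by -0.09. Fkbp5 was higher (log2 difference 0.54) and not called either. These 3 genes were named after their values were seen. That list shares Sgk1 and Dusp1 with the list of early genes and Per1 with that of the clock. The part of either in the rise of Nr4a1 and Ier3 was not tested. Of 11 chaperone genes of the heat shock response limma called 0, with 3 at an unadjusted p under 0.05 and a median of -0.07. The first of them, Dnajb1, was at 7.85 ± 0.104 and 10.8 ± 0.704 FPKM (limma adjusted p = 0.274). Hspa5, which encodes the chaperone BiP of the endoplasmic reticulum, was at 65.1 ± 13.9 and 36.4 ± 8.26 FPKM, and Hsph1 at 5.99 ± 0.425 and 4.62 ± 0.577 FPKM (limma adjusted p = 0.283 and 0.545).

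Markers of the cell types that could carry these genes were summed per heart. Endothelial markers (0 of 11 called) summed to 547 to 600 FPKM in WT and 597 to 703 in KO hearts, fibroblast markers (0 of 10) to 1195 to 2354 and 1414 to 2660, and smooth muscle and pericyte markers (0 of 11) to 600.0 to 657 and 611 to 763. All 3 sums overlapped between the genotypes, as did those of cardiomyocyte markers (0 of 12 called) and of macrophage markers (0 of 11 called, 734 to 1275 and 707 to 958 FPKM). Neutrophil markers (1 of 8 tested, S100a8, fell, a call that ended without any one heart, with limma adjusted p of 0.0616 to 0.192) summed to 55.2 to 79.7 FPKM in WT and 22.7 to 38.0 in KO hearts, with a median log2 difference of -0.80. Mmp8 and S100a9 had the next smallest p (limma adjusted p = 0.129 and 0.177). S100a9 was the largest part of the sum, at 33.1 to 47.9 FPKM in WT and 10.2 to 23.1 FPKM in KO hearts. Cxcr2, Retnlg and Csf3r overlapped between the genotypes (limma adjusted p = 0.707, 0.75 and 0.811), and the other tested neutrophil markers did not. T and B lymphocyte markers (0 of 7 tested called) summed to 29.2 to 95.4 and 13.3 to 23.1 FPKM, with a median of -0.85. Jchain, a plasma cell gene, made up 67.1% to 81.7% of the sum of the 7 tested markers in each heart. Without it these summed to 7.74 to 16.7 FPKM in WT and 4.11 to 5.72 FPKM in KO hearts, which did not overlap either. Among T cell genes, Trac and Lck did not overlap and Cd4 did (log2 difference -0.48, limma adjusted p = 0.641). Among B cell and plasma cell genes, Jchain and Mzb1 did not overlap (log2 differences -1.52 and -1.68, limma adjusted p = 0.312 and 0.341). Cd79a and Cd79b did overlap (log2 differences -0.35 and -0.15, limma adjusted p = 0.897 and 0.956). Cd4, Mzb1, Cd79a and Cd79b, and Cxcr2, Retnlg and Csf3r among the neutrophil markers, were named after their values were seen. The neutrophil and lymphocyte sums did not overlap and were lower in KO hearts, where Nr4a1, Nr4a3 and Ier3 were higher. Erythroid and platelet markers (0 of 9 tested called) summed to 6338 to 11100 and 4440 to 7309 FPKM. Without KO replicate 3 the KO sums ran from 22.7 to 23.0 FPKM for neutrophil, 19.2 to 23.1 for lymphocyte, 693 to 703 for endothelial, 736 to 763 for smooth muscle and pericyte, and 4440 to 4605 for erythroid and platelet markers. The last 3 then no longer overlapped with WT, while those of fibroblast, cardiomyocyte and macrophage markers still did. No marker was at 0 in all hearts. The part of these cells in the result was not tested.

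The genes whose pattern was most like that of Nr4a1 were found by Pearson correlation of log2 values over the 6 hearts, among 11405 genes. They were Fstl3 (r = 0.993), Atf4 (0.986), Tob2 (0.986), Nudt14 (0.986) and Cytl1 (0.983). Their r follows in part from the difference between the genotypes. Tob2, which encodes an antiproliferative protein of the BTG and TOB family, stood at 7.87, 8.38 and 8.20 FPKM in WT and at 17.5, 22.0 and 21.0 FPKM in KO replicates 1 to 3 (log2 difference 1.26 ± 0.12, limma adjusted p = 0.012). Its call ended without WT replicate 2 or KO replicate 1 (limma adjusted p = 0.0671 and 0.0535). Atf4, the factor of the integrated stress response, stood at 49.0 to 54.4 and 63.1 to 76.9 FPKM and was not called (limma adjusted p = 0.285). As deviations from the genotype means the nearest genes were Akap5, Gas2, Rbm12b1, Usp20 and Zfp329 (r from 0.994 to 0.999). None of these 5 was called, and Akap5 was lower in KO than in WT hearts (log2 difference -0.42, limma adjusted p = 0.559). With 6 hearts and 11405 genes these values of r are given as a description.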

How the data were processed

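RNA from 6 infarcted hearts, 3 WT and 3 KO by the genotype in their titles, was sequenced from TruSeq RNA libraries, per the labels. The deposited table is called one of counts but holds FPKM for each gene: 37.2% to 40.4% of a library's values are not whole. Bowtie 0.12.2 and the builds mm8 and mm9 are named, without a role, per the submitters' processing notes. The quantification tool, annotation and use of strand were not given in the sources used here. Of 52550 rows, 52403 matched GENCODE M21 (GRCm38) by identifier without version. Mitochondrial genes (37) are listed at 0 throughout and 8 nuclear pseudogenes hold 43.6% to 56.0% of all FPKM, so libraries were scaled by trimmed means of ratios (trims 0.3 and 0.05, factors 0.949 to 1.07).

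Genes at 0.5 FPKM or more in at least 3 libraries (14656) were fitted with limma 3.58.1 in R 4.3.3 on log2(FPKM / factor + 0.5), genotype as the only term, with mean-variance trend. The script was tested on simulated data. Depth was taken from the most frequent FPKM times length in single-transcript genes, and only 29.0% to 29.9% of low values came out whole (within 0.02 fragments), so no counts were recovered and no counting intervals are given. Promoter sequences are RefSeq's (GRCm38.p6), matched by symbol for 7 members. Egr1, on chromosome 18, was left out of the search, and no entry was found for Egr3 and Ier2.

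The members, gene lists and tests were chosen with earlier results of these data known. The named genes are all members, the 3 of smallest p in each pathway, clock, glucocorticoid, heat shock, neutrophil and lymphocyte list (other marker lists are given by their sums), Dbp, Arntl, Per1, Tsc22d3, Xist and Ddx3y, and the 5 genes most like Nr4a1 in each of 2 ways. The text says which other names were picked once their values were seen. Alternatives were other scalings (median of ratios, upper quartile, none), pseudocounts (0.1, 1) and filters, a robust fit, a replicate block and leaving out each heart. The planned permutation test of ratios between members is not used, since the ratios rest on values known when the members were chosen. The permutation p-values of single members rest on known values too and are given only as a description. A list of genes described as EGR1 targets is not reported here.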

Additional observations from a re-analysis of the deposited data

How the results depend on the processing

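Of the 10 members, Nr4a1, Nr4a2, Nr4a3, Egr1, Ier2 and Ier3 stayed higher in KO hearts under every alternative run. The log2 difference changed sign for Egr3 with a pseudocount of 0.1 (0.0145) and without single hearts (-0.3 to 0.225), and without single hearts for Egr2 (-0.036 to 0.474), Ier5 (-0.0712 to 0.197) and Srf (-0.185 to 0.0563); none of these 4 genes was called in any fit. The cause was not tested. By limma 2 members were called higher as reported, 1 with no filter on low values, 1 with the replicate block and 0 to 1 with a heart left out. Over all genes 40 were called higher and 15 lower; with no filter, where more genes are tested, it was 17 and 3, and without single hearts 9 to 27 and 3 to 9. With no filter 2 of the other immediate early genes and 2 glucocorticoid-induced genes were called, against 6 and 7. Without single hearts the counts were 1 to 6 and 1 to 6, and 5 to 7 for the clock list (8 as reported). Median log2 differences without single hearts ran from -0.0618 to 0.00501 for MAP kinase and calcium input, 0.0499 to 0.159 for SRF targets, 0.918 to 1.11 for the clock, 1.16 to 1.46 for glucocorticoid-induced genes, -0.253 to 0.0325 for heat shock and 0.00846 to 0.169 for smooth muscle and pericyte markers. With a pseudocount of 0.1 the neutrophil and lymphocyte medians were -1.08 and -1.22 (-0.80 and -0.85 as reported), and with no filter the lymphocyte median was -0.477.

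The deviations of same-numbered hearts correlated at 0.00759, -0.0357 and 0.18 for replicates 1, 2 and 3. WT replicate 1 was closest to KO replicate 2 (0.193) and WT replicate 3 to KO replicate 3. These values cannot say whether the replicate numbers of the titles pair the hearts. With the replicate block 24 genes were called higher, 1 of the other immediate early genes and 3 glucocorticoid-induced genes among them, and Ier3 had a limma adjusted p of 0.0562. Low depth limits Nr4a2, Nr4a3, Egr2 and Egr3 most.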
